A study of Mus musculus with 2 samples.

Results

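Chemokines are small secreted proteins that direct the movement of leukocytes, and chemokine receptors are the G protein-coupled receptors that read them. The genes described here are those whose symbol is that of a CC, CXC, CX3C or XC chemokine, of a chemokine receptor, or of 1 of the atypical receptors that bind chemokines without driving migration. Of the 27998 genes counted in the series, 66 gene IDs had such a symbol, and 56 of them had at least 10 counted molecules over both libraries. They comprised 20 CC ligands, 12 CXC ligands, 2 CX3C or XC ligands, 18 receptors and 4 atypical receptors. The 10 IDs left out were *Ccl26*, *Ccl27b* and copies of *Ccl19*, *Ccl21a*, *Ccl21b*, *Ccl21c* and *Ccl27a*, each with at most 1 molecule in a library. These copies are nearly identical in sequence. With at most 1 molecule on a copy, the counts of *Ccl19*, *Ccl21a* and *Ccl27a* were not split between copies. Whether reads that match several copies were lost cannot be seen from the counts, so these levels stay uncertain.

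The data were droplet-based single-cell RNA sequencing profiles of lungs of C57BL/6 mice (C57BL/6J per the methods) aged 2 weeks, which were perfused, minced and digested with dispase II, collagenase I and DNase I. One group was kept in room air (21% oxygen) and the other in hyperoxia (80% oxygen) from postnatal day 0 to 14. Lungs of 8 mice were pooled into 1 library per group, so neither group had a replicate and the groups could not be tested against each other. The labels name no allele, transgene or drug for either group. Both libraries held AT1, AT2, club, ciliated and alveolar macrophage classes, which mark lung tissue.

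CC chemokines such as *Ccl2* and *Ccl7* bind *Ccr2* and draw monocytes, while *Ccl3* and *Ccl5* bind *Ccr1*. *Cxcl1*, *Cxcl2* and *Cxcl3* bind *Cxcr2* and recruit neutrophils, and *Cxcl12* holds and guides cells through *Cxcr4*, with *Ackr3* as its scavenger. In the lung, resident macrophages, stromal cells and endothelial cells (ECs) all make chemokines, and circulating leukocytes carry most of the receptors.

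Expression was the number of unique molecular identifiers (UMIs) of a gene summed over the cells of a class, as counts per 1000000 UMIs of that class (CPM). Numbers in parentheses after a value are exact 95% intervals (Poisson for CPM, conditional for the ratio of hyperoxia over room air, Clopper-Pearson for shares of cells). For a level of 0 the upper bound is the level that 3 counts would give, which also serves as the floor of a ratio. The intervals hold the error of counting alone and say nothing of the spread between mice. The reads came from the 3′ end of transcripts, so CPM does not scale with transcript length and is compared between genes without a length term. Room air held 4234 barcodes with 39593888 UMIs and hyperoxia 13223 barcodes with 111934936 UMIs, and the study states a cell count slightly below their sum of 17457 and names no filter on cells. After limits on genes and mitochondrial UMIs and removal of likely doublets, 3680 and 10472 cells were kept, with medians of 8074.5 and 7646 UMIs, and 17 barcode sequences occurred in both libraries. Their 78 clusters, built without the 56 genes, gave 32 classes named from markers, and 18 clusters with 6.93% of the room air cells and 7.01% of the hyperoxia cells stayed unnamed. The names were rebuilt from the counts and mean cells like the named type. Of the 60 named clusters 20 had over 90% or under 10% of their cells from hyperoxia, against 74.0% of all cells kept, so several classes are made of different clusters in each library. For the classes whose libraries lay in different clusters, several values are also given by cluster.

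The genes lay in a few genomic groups (mm10, GENCODE annotation). Chromosome 11 held 14 of the 56, among them 11 of the 20 CC ligands, and chromosome 9 held 13, all of them receptors. *Ccl2* (chr11:82035571-82037453) and *Ccl7* (chr11:82045712-82047525) were neighbours there, as were *Ccl3* (chr11:83647844-83649355) and *Ccl4* (chr11:83662584-83664683), and *Ccl9* (chr11:83572919-83578636) and *Ccl6* (chr11:83587882-83593087). Chromosome 5 held 9 ligands, 8 of them of the CXC type. *Cxcl3* (chr5:90786103-90789600), *Cxcl1* (chr5:90891241-90893115) and *Cxcl2* (chr5:90903871-90905938) stood there on the same strand.

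Most of the genes were sharply divided by cell class. Levels that return in the comparisons below carry their intervals there. In myeloid cells the 2 ligands of highest level, by the mean of the libraries, differed from class to class. In alveolar macrophages they were *Ccl6*, a CC ligand of mouse myeloid cells, at 5189 and 14835 CPM in room air and hyperoxia, and *Cxcl2* at 453 (422 to 487) and 665 (643 to 687) CPM. In the same order of libraries, neutrophils held *Cxcl2* at 1961 and 5212 CPM and *Ccl6* at 2687 (2528 to 2853) and 2086 (2012 to 2163) CPM. Classical monocytes held *Ccl6* at 1039 (984 to 1097) and 1489 (1421 to 1559) CPM and *Cxcl2* at 262 and 1059.5 CPM, and nonclassical monocytes *Ccl6* at 1014 (954 to 1076) and 959 (874 to 1051) CPM and *Cxcl2* at 122 and 577 CPM. Interstitial macrophages were highest in *Cxcl2*, at 2342 (2216 to 2474) and 3832 (3721 to 3945) CPM, followed by *Cxcl16*, the ligand of *Cxcr6*, at 461 (406 to 521) and 485 (446 to 526) CPM. In type 2 conventional dendritic cells (cDC2) the leading ligands were *Cxcl2* at 398 and 2000.2 CPM and *Ccl17*, a ligand of *Ccr4*, at 839 (762 to 922) and 1519 (1453 to 1586) CPM. These pairs were taken by the mean of the libraries, and within a library the order could differ. *Ccl9* stood above *Cxcl2* in alveolar macrophages of hyperoxia and in classical monocytes of room air. In cDC2 of room air *Ccl6* and *Ccl24* stood above *Cxcl2*, and in interstitial macrophages *Ccl12* (room air) and *Ccl4* (hyperoxia) stood above *Cxcl16*.

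**Figure D1:**
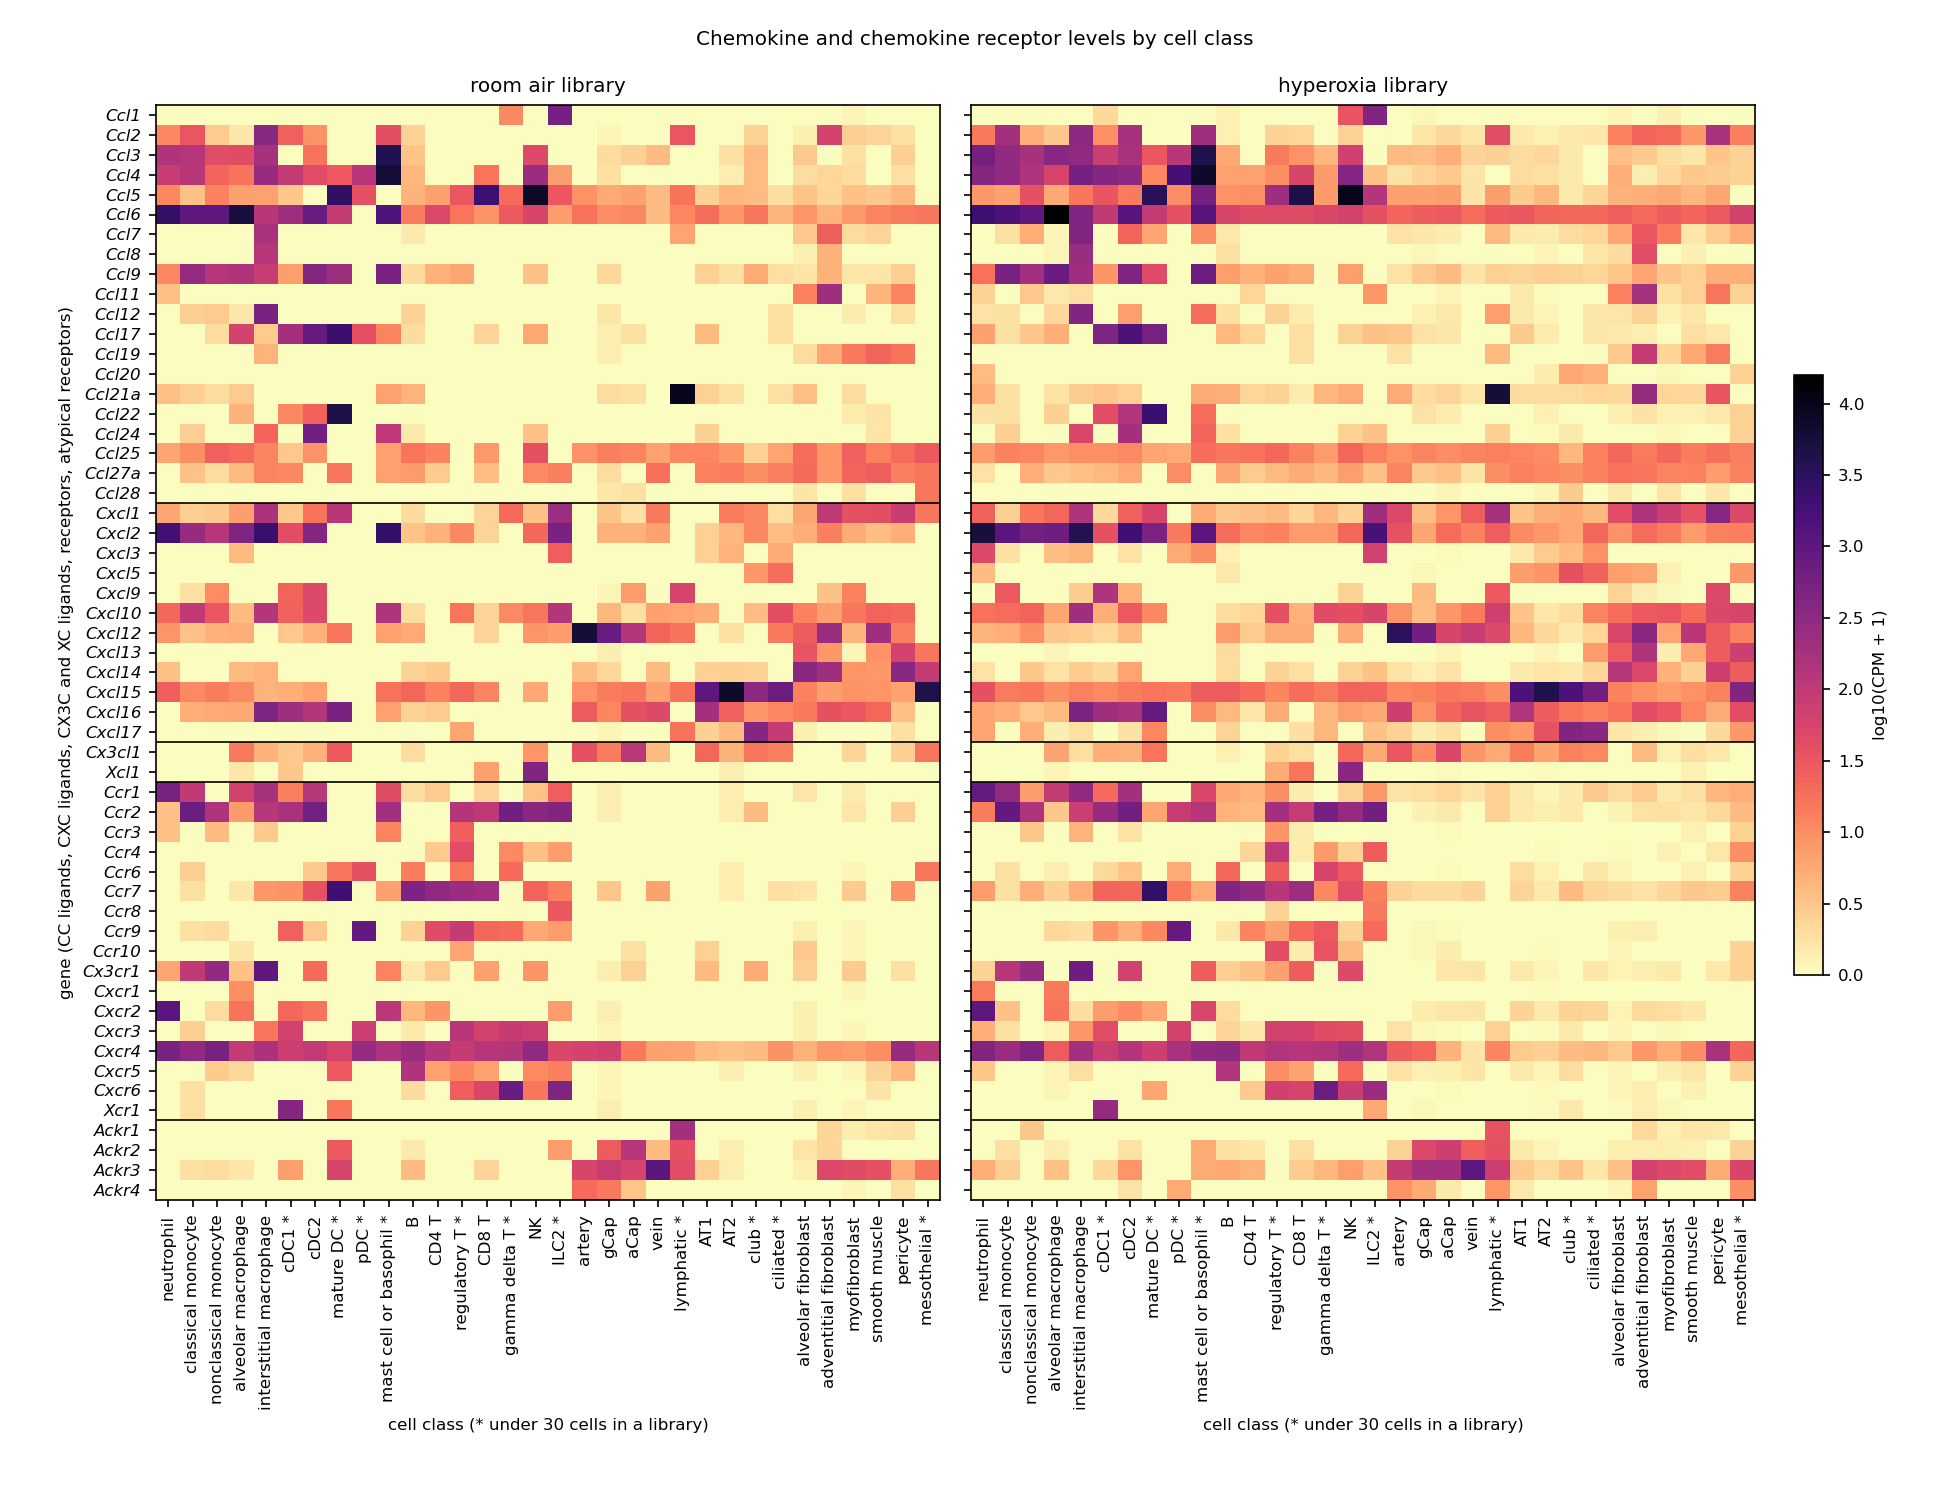
Level of the genes reported (rows) in 32 cell classes (columns) of the room air library (left) and the hyperoxia library (right), as log10(CPM + 1), with lines between the groups of genes by role and asterisks at classes of under 30 cells in a library. Myeloid classes carry *Ccl6* and *Cxcl2*, lymphatic ECs *Ccl21a*, arteries *Cxcl12*, AT2 cells *Cxcl15* and veins *Ackr3*.

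Each myeloid class had its own leading receptors. *Cxcr2*, the neutrophil receptor for *Cxcl1* and *Cxcl2*, led in neutrophils at 1066 (967 to 1173) and 1006 (955 to 1059.98) CPM, followed by *Ccr1* at 542 (472 to 619) and 842 (795 to 892) CPM. *Ccr2*, the receptor that brings monocytes out of the bone marrow, led in classical monocytes at 710.2 (665 to 758) and 888 (836 to 943) CPM. *Cxcr4* was at 301 (272 to 333) and 234 (208 to 263) CPM there. Nonclassical monocytes led in *Cxcr4* at 535 (492 to 581) and 442 (385 to 506) CPM and in *Cx3cr1*, the fractalkine receptor, at 289 (258 to 323) and 259.5 (216 to 309) CPM. *Cx3cr1* was higher still in interstitial macrophages, at 952 (872 to 1037) and 687 (641 to 736) CPM, where *Ccr1* came second at 178 (144 to 217) and 310.3 (279 to 344) CPM. Receptors were low in alveolar macrophages, with *Ccr1* at 64.5 (52.9 to 77.96) and 89.2 (81.3 to 97.6) CPM and *Cxcr4* at 89.2 and 27.5 CPM. cDC2 held *Ccr2* at 579.9 (516 to 649) and 638 (596 to 682) CPM and *Ccr1* at 116 (88.5 to 149) and 187 (165 to 212) CPM.

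Among lymphocytes, natural killer (NK) cells led in *Ccl5*, at 7675 (7409 to 7949) and 10067 (9830.3 to 10309) CPM, and in *Xcl1*, the ligand for cross-presenting dendritic cells, at 407 (347 to 474) and 341 (298 to 388) CPM, with *Ccr2* at 338 (284 to 399.5) and 276 (238 to 319) CPM and *Cxcr4* at 309 (257 to 368) and 217 (184 to 255) CPM. CD8 T cells held *Ccl5* at 2067 and 4608 CPM and *Ccl4* at 15.1 and 55.2 CPM, beside *Ccr7*, the receptor that takes naive T cells into lymph nodes, at 200.3 (169 to 236) and 222 (203 to 242) CPM and *Cxcr4* at 122 (98.1 to 150.3) and 121 (107 to 136) CPM. CD4 T cells held *Ccr7* at 306 (261 to 356) and 291 (265 to 319) CPM and *Cxcr4* at 131 (102 to 166) and 99.7 (84.95 to 116) CPM. B cells held the same pair, *Ccr7* at 477 (448 to 507) and 436 (415 to 457) CPM and *Cxcr4* at 242 (222 to 264) and 331 (313 to 349.8) CPM. The highest ligands listed in B cells were *Ccl6* at 13.4 (8.99 to 19.3) and 54.03 (46.9 to 61.9) CPM and *Cxcl15* at 20.8 (15.2 to 27.9) and 27.5 (22.5 to 33.3) CPM, and in CD4 T cells *Ccl6* at 48.8 (31.8 to 71.4) and 44.3 (34.7 to 55.8) CPM and *Cxcl15* at 11.3 (4.13 to 24.5) and 19.1 (12.96 to 27.1) CPM. These genes had most of their UMIs in alveolar macrophages (*Ccl6*) and AT2 cells (*Cxcl15*), and the level in B cells serves below for comparison. Whether free RNA gives the level in lymphocytes was not tested.

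Each EC class had its own pattern. Arteries led all classes in *Cxcl12*, at 5914 (5669 to 6167) and 3208 (3114 to 3305) CPM, with *Cxcl16* at 26.98 and 70.6 CPM, *Ackr3* at 53.96 (32.96 to 83.3) and 87.4 (72.4 to 104) CPM and *Cxcr4* at 59.4 and 26.2 CPM. General capillary (gCap) cells held *Cxcl12* at 772 (748 to 796) and 609.6 (591 to 629) CPM and *Ccl6* at 9.32 (6.87 to 12.4) and 26.3 (22.6 to 30.5) CPM, with *Ackr3* at 82.9 and 192 CPM and *Cxcr4* at 67.6 and 20.5 CPM. The *Ccl6* level of gCap cells lay below that of B cells in both libraries. Aerocytes (aCap cells) held *Cxcl12* at 134 and 54.96 CPM and *Cx3cl1*, the membrane-bound ligand fractalkine, at 109.6 and 51.4 CPM, with *Ackr3* at 56.3 and 191 CPM and *Ackr2*, a scavenger of CC chemokines, at 129 (110.1 to 149.97) and 73.1 (67.8 to 78.7) CPM. Veins were the highest class for *Ackr3*, at 1082 (977 to 1196) and 1036 (985 to 1089) CPM, and had at least 1 UMI of it in 93.9% (79.8 to 99.3) of room air cells and 99.1% (95.3 to 99.98) of hyperoxia cells, while *Ackr2* was at 2.81 (0.0712 to 15.7) and 24.8 (17.4 to 34.2) CPM, *Cxcl12* at 22.5 (9.71 to 44.3) and 82.4 (68.5 to 98.3) CPM and *Cxcl16* at 47.8 (27.8 to 76.5) and 33.5 (24.9 to 44.1) CPM. Ligand and scavenger of the same axis thus peaked in different EC classes of both libraries.

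In the epithelium, *Cxcl15* (lungkine), a CXC ligand of lung epithelium, led in AT2 cells at 7386 (7279.6 to 7494) and 4328 (4289.9 to 4365) CPM and in AT1 cells at 1008 (933 to 1087) and 1509.8 (1459 to 1562) CPM. Markers of AT2 cells summed to 47377 and 74109 CPM in AT1 cells of room air and hyperoxia, above the 28908 and 19512 CPM of their own markers, and none of the 8 AT2 markers was at 0. Their part in the AT1 levels was not tested. *Cxcl16* came second in both, at 24.5 (18.8 to 31.5) and 25.8 (22.97 to 28.9) CPM in AT2 and 183 (152 to 219) and 137 (122 to 154) CPM in AT1. The highest receptors there were *Cxcr4* and *Ackr3* in AT2 (*Cxcr4* 2.41 (0.886 to 5.25) and 1.62 (0.977 to 2.53) CPM, *Ackr3* 0.402 (0.0102 to 2.24) and 1.03 (0.5297 to 1.79) CPM) and *Cxcr4* and *Cx3cr1* in AT1 (*Cxcr4* 2.98 (0.361 to 10.8) and 1.84 (0.501 to 4.71) CPM, *Cx3cr1* 2.98 (0.361 to 10.8) and 0.4596 (0.0116 to 2.56) CPM). No receptor reached a level above a few CPM in these alveolar epithelial cells.

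Stromal classes were led by CXC ligands. Alveolar fibroblasts held *Cxcl14*, a ligand with a poorly defined receptor, at 347 and 128 CPM and *Cxcl12* at 25.9 and 53.6 CPM. Adventitial fibroblasts held *Cxcl12* at 247 (214 to 283) and 352 (331 to 375) CPM and *Ccl11* (eotaxin), which recruits eosinophils, at 208 (178 to 241) and 179.6 (164 to 196) CPM. Pericytes held *Cxcl1* at 79.3 and 363 CPM and *Cxcl14* at 359.5 and 72.7 CPM, myofibroblasts *Cxcl1* at 36.6 and 78.7 CPM and *Cxcl16* at 30.2 (25.5 to 35.5) and 31.2 (27.4 to 35.4) CPM, and smooth muscle cells *Cxcl12* at 206 (184 to 231) and 114 (103 to 126) CPM and *Cxcl1* at 38.4 (29.01 to 49.9) and 34.6 (28.6 to 41.5) CPM. *Ackr3* was the leading receptor of adventitial fibroblasts (48.6 (34.7 to 66.2) and 65.1 (55.99 to 75.2) CPM), myofibroblasts (43.6 (37.9 to 49.9) and 46.4 (41.7 to 51.4) CPM) and smooth muscle (37.03 (27.8 to 48.3) and 41.7 (35.1 to 49.2) CPM). Pericytes differed from them, with *Cxcr4* at 249.6 (222 to 279) and 168 (149.8 to 188) CPM and, next, *Ccr7* at 8.26 (3.96 to 15.2) and 1.68 (0.346 to 4.8998) CPM. *Cxcr4* was second in adventitial fibroblasts (7.29 and 6.76 CPM), myofibroblasts (6.17 and 4.11 CPM) and smooth muscle (8.91 and 8.88 CPM), and alveolar fibroblasts held *Cxcr4* at 3.83 and 1.94 CPM and *Ackr3* at 0.3195 and 2.37 CPM.

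For 11 classes a library held under 30 cells, so their levels are given with no ratio. Mast cells or basophils (26 room air and 46 hyperoxia cells) were the highest class for *Ccl4*, at 6090.4 (5737 to 6459.96) and 7188 (6845 to 7544) CPM, and for *Ccl3*, at 3967 (3682 to 4267) and 4355 (4088 to 4634) CPM, with *Cxcr4* at 143 (93.4 to 209.6) and 279.8 (215 to 357) CPM and *Ccr2* at 193 (134 to 268) and 127 (84.9 to 182) CPM. Lymphatic ECs (14 room air and 71 hyperoxia cells) were the highest class for *Ccl21a*, which guides *Ccr7*-bearing cells into lymph vessels, at 9375 (8945 to 9821) and 5858 (5676 to 6045) CPM. *Cxcl1* was at 0 (0 to 15.8) and 178 (147 to 213) CPM there, *Ackr3* at 42.04 (18.2 to 82.8) and 74.7 (55.5 to 98.5) CPM and *Ackr1* at 184 (128 to 256) and 34.4 (21.8 to 51.6) CPM. Mature dendritic cells (7 room air and 26 hyperoxia cells) led in *Ccl22* at 4412 (3932 to 4934) and 2223 (2019.96 to 2441) CPM, *Ccl5* at 2975 (2583 to 3409) and 3403 (3151 to 3670.3) CPM and *Ccr7* at 2041 (1719 to 2405) and 2775 (2548 to 3017) CPM, with *Cxcr4* at 57.5 (15.7 to 147) and 70.9 (38.8 to 119) CPM. Type 1 conventional dendritic cells (22 room air and 63 hyperoxia cells) held *Xcr1*, the receptor of *Xcl1*, at 379 (326 to 437) and 273 (241 to 309) CPM, *Ccr2* at 168 (134 to 208) and 253 (222 to 287) CPM, *Ccl17* at 184 (148 to 226) and 464 (422 to 510) CPM and *Ccl4* at 89.1 (64.7 to 119.6) and 377 (338 to 418) CPM. Plasmacytoid dendritic cells (3 room air and 31 hyperoxia cells) held *Ccr9* at 869.5 (551 to 1305) and 812 (697 to 941) CPM, *Cxcr4* at 265 (106 to 545) and 165 (116 to 229) CPM, *Ccl4* at 113 (23.4 to 331) and 1821 (1647 to 2009.7) CPM and *Ccl3* at 0 (0 to 113) and 115 (74.2 to 169) CPM.

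Group 2 innate lymphoid cells (14 room air and 62 hyperoxia cells) were nearly the sole source of *Ccl1*, the ligand of *Ccr8*, at 582 (470.1 to 713) and 436 (376 to 504) CPM, and held 97.9% and 85.6% of its UMIs in room air and hyperoxia. They also held *Cxcl2* at 513 (408 to 637) and 1598 (1480.4 to 1723) CPM, *Ccr2* at 432 (336 to 547) and 622 (549.6 to 702) CPM and *Cxcr6* at 463 (364 to 582) and 245 (200.3 to 297) CPM. Gamma delta T cells (17 room air and 59 hyperoxia cells) held *Cxcr6*, a receptor of tissue-resident lymphocytes, at 737 (581 to 921) and 688 (598 to 788) CPM, *Ccr2* at 622 (480.04 to 793) and 559.9 (479 to 651) CPM, *Ccl6* at 28.7 (5.92 to 83.9) and 52.7 (30.1 to 85.6) CPM and *Cxcl10* at 9.57 (0.242 to 53.3) and 42.8 (22.8 to 73.2) CPM. Regulatory T cells (26 room air and 109 hyperoxia cells) held *Ccr7* at 234 (171 to 312) and 120 (95.4 to 149) CPM, *Ccr2* at 132 (86.4 to 194) and 196 (164 to 232) CPM, *Ccl5* at 30.5 (11.2 to 66.4) and 219.5 (186 to 258) CPM and *Ccl6* at 15.3 (3.15 to 44.6) and 45.4 (30.8 to 64.4) CPM. The intervals of *Ccl6* in gamma delta and regulatory T cells overlapped those in B cells. Club cells (9 room air and 68 hyperoxia cells) held *Cxcl15* at 327 (286 to 373) and 1502 (1450 to 1554) CPM and *Cxcl17*, a ligand of airway mucosa, at 385 (340.1 to 434) and 426 (398 to 454) CPM. Their receptors stayed low, with *Cxcr4* at 2.89 (0.351 to 10.5) and 2.81 (1.03 to 6.12) CPM and *Cx3cr1* at 4.34 (0.895 to 12.7) and 0 (0 to 1.41) CPM. Ciliated cells (21 room air and 58 hyperoxia cells) held *Cxcl15* at 695 (647 to 745) and 599 (562 to 639) CPM, *Cxcl17* at 85.5 (69.3 to 104) and 347 (318 to 377) CPM, *Cxcr4* at 7.93 (3.63 to 15.1) and 3.16 (1.03 to 7.38) CPM and *Ccr7* at 0.882 (0.0223 to 4.91) and 1.26 (0.153 to 4.57) CPM. In these cells markers of club cells summed to 316869 and 188317 CPM in room air and hyperoxia, above the 5209 and 5869 CPM of their own markers. Those of AT2 cells summed to 4967 and 4082 CPM. The part of either list in the ciliated levels was not tested. The mesothelial class (4 room air and 50 hyperoxia cells) held *Cxcl15* at 432 (385 to 482) CPM, *Cxcl14* at 26.5 (15.9 to 41.3) CPM, *Cxcr4* at 20.9 (11.7 to 34.4) CPM and *Ackr3* at 54.3 (38.6 to 74.2) CPM in hyperoxia. Its hyperoxia cells held mesothelial markers at a summed 5602 CPM and AT2 markers at 19116.5 CPM. In its 4 room air cells 7 of the 8 mesothelial markers were at 0 while AT2 markers summed to 119880 CPM, so their levels are not given.

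Hyperoxia and room air were compared within each of the 21 classes with at least 30 cells in both libraries. A gene entered in a class with at least 20 UMIs and a mean of at least 20 CPM, and it counted as past the limit with a ratio of at least 2 or at most 0.5. Of the 56 genes 41 entered in some class, giving 163 pairs of gene and class. Of these, 53 pairs (32.5%) were at least 2-fold higher in hyperoxia and 15 (9.20%) at least 2-fold lower, while 95 lay between. Over all genes that met the same limits, 120000 pairs in all, 2.7% were higher and 2.19% lower. The interval of the ratio left out 1 in all 68 pairs past the limit. CC ligands were past it upwards in 30 and downwards in 3 of 55 pairs (median log2 ratio 1.16), and CXC ligands in 17 and 7 of 51 (median 0.31). Receptors were past it in 4 pairs upwards and 4 downwards of 45 (median -0.06), atypical receptors in 2 upwards and 0 downwards of 9 (median 0.42), and the CX3C and XC ligands in 0 upwards and 1 downwards of 3. Ligands, and CC ligands first, thus made up most of the pairs past the limit, and the receptors had as many higher as lower.

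**Figure D2:**
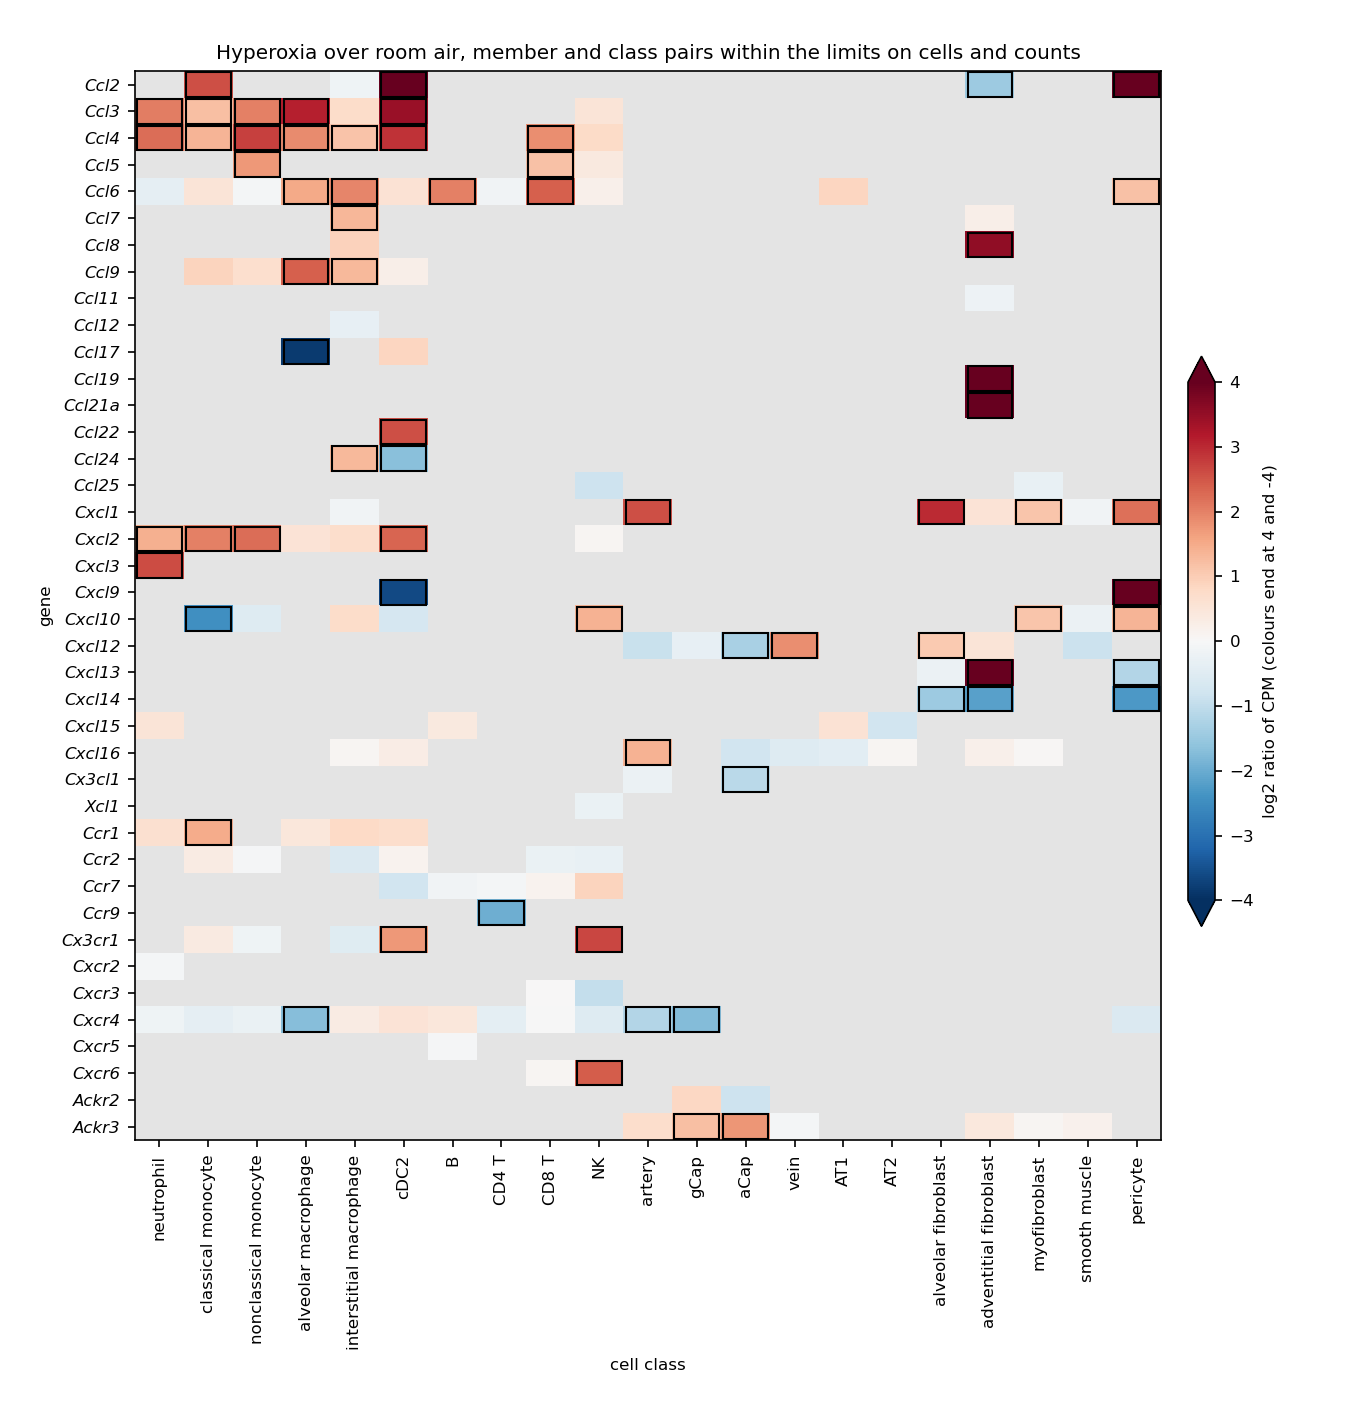
Log2 ratio of CPM, hyperoxia over room air, for the pairs of gene reported (rows) and cell class (columns) within the limits on cells and counts, with grey where a pair did not enter and a black outline for the 68 pairs past the 2-fold limit. *Ccl4* has 7 outlines, all higher, *Ccl3* and *Ccl6* have 5 each, and *Cxcl14* is lower in 3 stromal classes.

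A summed level can rest on few cells. In 21 of the 53 pairs higher in hyperoxia the 10 cells with the most UMIs held under 50% of the gene's UMIs in hyperoxia, in 21 they held 50% to 90%, and in 11 at least 90%. Of the 15 pairs lower in hyperoxia, the corresponding numbers in room air were 5, 2 and 8. The 26 pairs under 50%, 21 higher and 5 lower, are plotted with their levels. The measure does not scale with the size of a class, so it does not mean that most cells carry the gene. In alveolar fibroblasts 10 of 1136 hyperoxia cells held 49.4% of the *Cxcl1* UMIs.

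**Figure D3:**
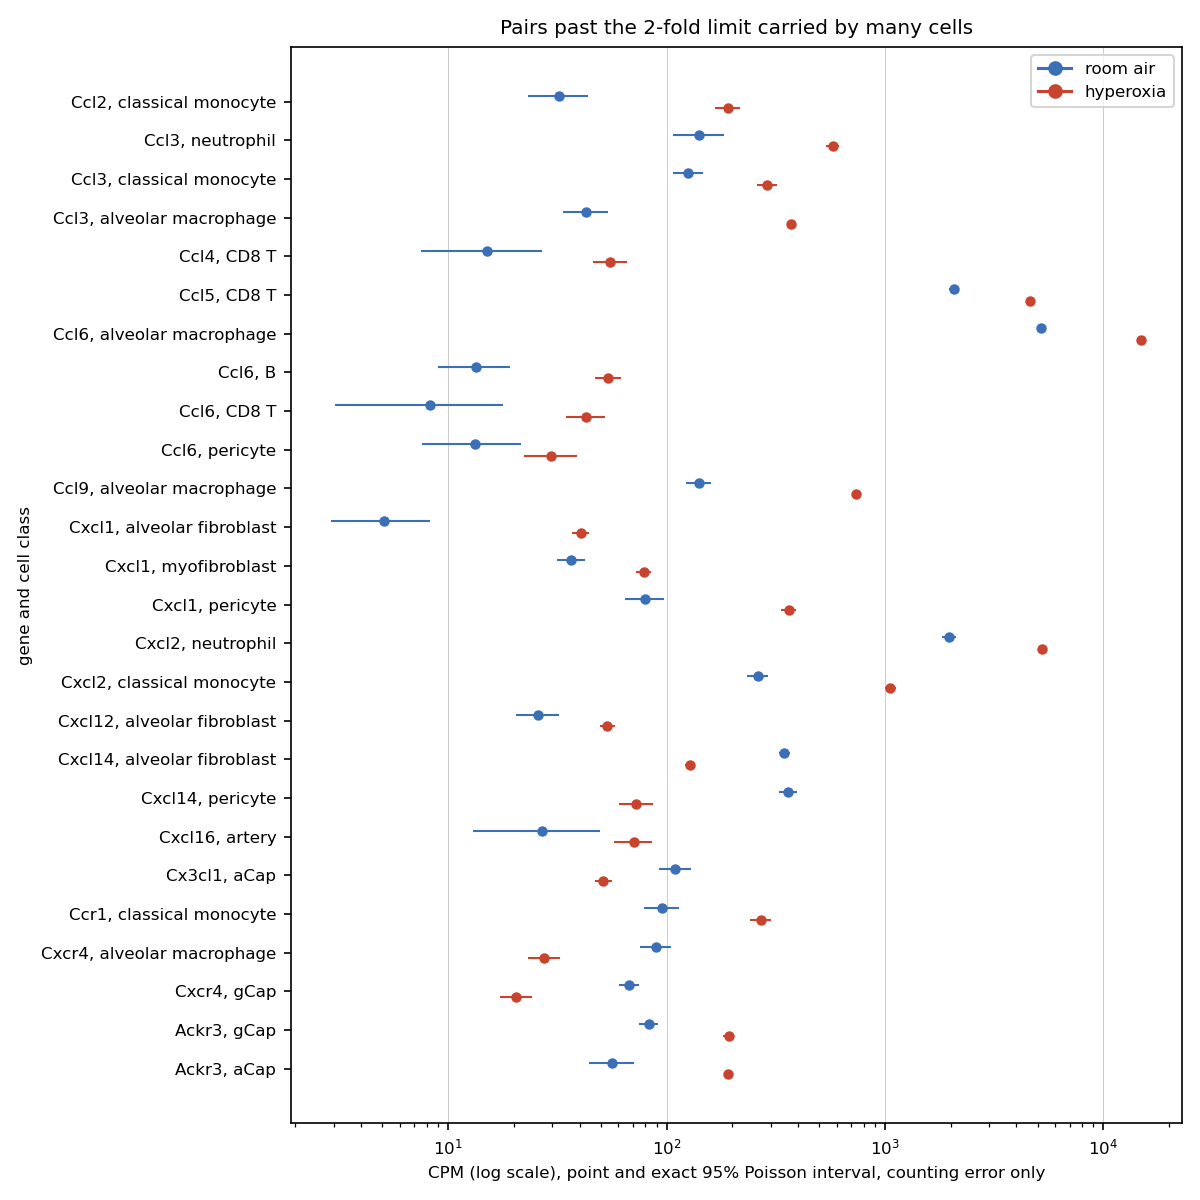
CPM of the 26 pairs past the 2-fold limit in which the 10 highest cells held under 50% of the UMIs of the library with the higher level, in room air (blue) and hyperoxia (red), on a log axis, with bars for exact 95% Poisson intervals. Of these pairs 21 are higher and 5 lower in hyperoxia, and the intervals of the libraries do not overlap in any pair.

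Among CC ligands, *Ccl6* in alveolar macrophages had the highest level of all genes here. It stood at 5189 (5079.8 to 5299.6) CPM in room air against 14835 (14731 to 14939) CPM in hyperoxia, a ratio of 2.86 (2.796 to 2.92). The ratio was past the limit in all 10 alternative settings (2.73 to 3.45), and alveolar macrophages made up 3.45% of the cells kept in room air and 2.79% in hyperoxia. To compare shares of cells at like depth, each cell was thinned to 2000 UMIs and shallower cells were left out, which kept 121 of 127 room air and 280 of 292 hyperoxia cells of this class. The thinned share of cells with a UMI of *Ccl6* was 94.2% (88.4 to 97.6) of room air cells and 99.3% (97.4 to 99.9) of hyperoxia cells, or 96.9% and 99.3% without thinning.

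B cells, which are not known to make *Ccl6*, gave the level for comparison. Their thinned share was 1.89% (0.762 to 3.85) of room air cells and 9.47% (7.74 to 11.4) of hyperoxia cells, or 5.61% and 14.7% without thinning, over 371 of 410 room air and 1014 of 1178 hyperoxia cells, and their ratio was 4.02 (2.72 to 6.16), past the limit. The median cell had 12877 and 17917 UMIs in alveolar macrophages of room air and hyperoxia and 4496 and 2819 UMIs in B cells. *Ccl6* was also past the limit in CD8 T cells (8.23 and 42.8 CPM, ratio 5.197 (2.31 to 14.5)) and in pericytes (13.2 and 29.6 CPM, ratio 2.24 (1.26 to 4.198)). The levels in these classes lay near that of B cells. Whether they come from free RNA or from expression was not tested. The *Ccl6* pairs of B cells, CD8 T cells and pericytes stay in the counts of pairs past the limit.

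*Ccl9*, another CC ligand of mouse macrophages that binds *Ccr1*, was at 140.5 (123 to 159.7) CPM in room air against 738 (715 to 761) CPM in hyperoxia in alveolar macrophages, a ratio of 5.25 (4.6004 to 6.02). Its thinned share of cells was 14.05% (8.403 to 21.5) of room air cells and 56.1% (50.04 to 61.97) of hyperoxia cells, or 38.6% and 85.6% without thinning. *Ccl3* (MIP-1 alpha), a ligand of *Ccr1*, was at 42.8 (33.4 to 53.996) CPM in room air against 372 (356 to 389) CPM in hyperoxia, a ratio of 8.69 (6.86 to 11.2). Its thinned share was 4.13% (1.36 to 9.38) of room air cells and 31.8% (26.4 to 37.6) of hyperoxia cells, or 16.5% and 67.5% without thinning, against 0.2695% (0.00682 to 1.49) of room air cells and 0.6903% (0.278 to 1.42) of hyperoxia cells, or 1.22% and 1.19% without thinning in B cells. *Ccl4* (MIP-1 beta), a close relative of *Ccl3* that attracts monocytes and T cells, was lower than *Ccl3* there, at 15.7 (10.2 to 22.97) CPM in room air against 57.7 (51.4 to 64.6) CPM in hyperoxia, with a ratio of 3.68 (2.46 to 5.73). All 3 genes were past the limit in each of the 10 settings.

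Alveolar macrophages of the libraries fell mostly into different clusters, so the values were also taken within each. In 1 cluster *Ccl6* was at 9658 (9187 to 10148) CPM in its 11 room air cells and 14999 (14894 to 15105) CPM in its 279 hyperoxia cells. In the other it was at 4703 (4594 to 4814) CPM in its 116 room air cells and 9073 (8592 to 9573) CPM in its 13 hyperoxia cells. *Ccl9* was at 326 (244 to 426) CPM in its 11 room air cells and 743 (719 to 767) CPM in its 279 hyperoxia cells of the first, and at 120.3 (103 to 139) CPM in its 116 room air cells and 565 (449.95 to 700.3) CPM in its 13 hyperoxia cells of the second. Both genes were higher in hyperoxia within both clusters. The difference of *Ccl9* was past the limit within each cluster, while that of *Ccl6* stayed inside the limit within each. The ratio of *Ccl6* over the whole class was thus larger than that within either cluster. *Ccl3* was at 24.6 (6.7004 to 62.96) CPM in its 11 room air cells and 367 (351 to 384) CPM in its 279 hyperoxia cells of the first and at 44.8 (34.7 to 56.9) CPM in its 116 room air cells and 544 (432 to 678) CPM in its 13 hyperoxia cells of the second. The median log2 ratio over all genes of this class was -0.21, so a gene at a ratio of 1 sits above the middle of the class. With trimmed-mean (TMM) scaling, which centres the class, the ratio of *Ccl6* was 3.45.

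In alveolar macrophages 4 of 8 genes were past the limit upwards and 2 downwards, against 1.51% higher and 4.6% lower among all genes of the class. One of the 2 lower genes was *Ccl17*, at 58.5 (47.4 to 71.3) CPM in room air against 4.15 (2.6002 to 6.28) CPM in hyperoxia. It rested on few cells, since 1 room air cell held 78 of its 97 UMIs. Markers of nonclassical monocytes summed to 2301 CPM in these room air cells and 874 CPM in hyperoxia, none of the 9 markers was at 0 in either library, and their part in these results was not tested. Those of aCap cells summed to 732 and 1616 CPM, with 1 and 0 of the 9 at 0. The aCap list holds *Car4*, which was also a leading gene of both alveolar macrophage clusters.

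*Ccl3* and *Ccl4* were higher in hyperoxia across the myeloid classes. In neutrophils *Ccl3* was at 141 (107 to 183) CPM in room air against 578 (539 to 619) CPM in hyperoxia, a ratio of 4.09 (3.12 to 5.47). *Ccl4* was at 80.6 (55.2 to 114) CPM in room air against 378 (347 to 411) CPM in hyperoxia, a ratio of 4.69 (3.28 to 6.92). Neutrophils formed 3 clusters. In the largest, *Ccl3* was at 58.5 (34.7 to 92.5) CPM in its 98 room air cells and 271 (238 to 309) CPM in its 377 hyperoxia cells. A cluster with 1 room air cell and 52 hyperoxia cells held it at 4652 CPM in hyperoxia. A cluster with the granule genes of immature neutrophils *Ltf*, *Camp* and *Ngp* among its leading genes held it at 407 (284 to 566) CPM in its 6 room air cells and 38.4 (22.4 to 61.5) CPM in its 62 hyperoxia cells. The thinned share of neutrophils with a UMI of *Ccl3* was 8.696% (3.83 to 16.4) of room air cells and 24.02% (19.5 to 28.98) of hyperoxia cells, or 13.3% and 26.9% without thinning, over 92 of 105 room air and 333 of 491 hyperoxia cells, with a median of 3174 and 2296 UMIs per cell. Markers of AT2 cells summed to 668 CPM in neutrophils of room air and 1382 CPM in hyperoxia, none of the 8 at 0, and their part in the neutrophil results was not tested.

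In classical monocytes *Ccl3* was at 125 (107 to 147) CPM in room air against 289 (259 to 320.5) CPM in hyperoxia, a ratio of 2.3001 (1.902 to 2.79). *Ccl4* was at 115 (97.3 to 135) CPM in room air against 295 (265 to 327) CPM in hyperoxia, a ratio of 2.56 (2.11 to 3.13). In nonclassical monocytes the ratios were 4.04 (2.78 to 5.92) for *Ccl3* (42.7 and 172 CPM) and 6.62 (4.07 to 11.1) for *Ccl4* (21.3 and 141 CPM). There the 10 highest hyperoxia cells held 81.9% of the *Ccl3* UMIs and 98.5% of the *Ccl4* UMIs. Markers of interstitial macrophages summed to 1602 CPM in nonclassical monocytes of room air and 2938 CPM in hyperoxia, with 2 and 0 of the 8 at 0, and their part was not tested. Interstitial macrophages held *Ccl4* at 252 (212 to 298) CPM in room air against 557 (516 to 602) CPM in hyperoxia, a ratio of 2.21 (1.84 to 2.68), and *Ccl3* there stayed between the limits, at 181 (148 to 221) and 303 (272 to 336) CPM. In CD8 T cells *Ccl4* was at 15.1 (7.54 to 27.01) CPM in room air against 55.2 (46.1 to 65.6) CPM in hyperoxia, a ratio of 3.66 (1.98 to 7.51). That ratio held in 9 of 10 settings and was 1.58 at a coarser clustering. So *Ccl4* was past the limit upwards in 7 of the 8 classes where it entered and *Ccl3* in 5 of 7, and neither was past it downwards in any.

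*Ccl2* (MCP-1), the main ligand of *Ccr2*, differed in direction between classes. In classical monocytes it was at 32.4 (23.2 to 43.9) CPM in room air against 191 (167 to 218) CPM in hyperoxia, a ratio of 5.91 (4.23 to 8.46). In pericytes it was at 0.826 (0.0209 to 4.605) CPM in room air against 163 (145 to 183) CPM in hyperoxia, and the ratio of 197 (35.2 to 7826) rests on a single UMI in room air (the range over the settings was 8.29 to 258, the lowest value with stricter limits on cells). That UMI lay in the main room air cluster, and the main hyperoxia cluster held *Ccl2* at 0 (0 to 13.9) CPM in its 17 room air cells and 169 (150.3 to 190.02) CPM in its 170 hyperoxia cells. A UMI of it was found in 46 of 206 hyperoxia pericytes, of which the 5 highest held 156 of 292 UMIs. In interstitial macrophages, its main source, *Ccl2* stayed between the limits, at 355 (307 to 409) and 313 (282 to 346) CPM. In adventitial fibroblasts it was lower in hyperoxia, at 59.5 (44.04 to 78.7) CPM in room air against 21.7 (16.6 to 27.9) CPM in hyperoxia, a ratio of 0.364 (0.246 to 0.542), past the limit in 7 of 10 settings. *Ccl7*, its neighbour in the genome and a second ligand of *Ccr2*, was at 165 (133 to 203) CPM in room air against 413 (377 to 451) CPM in hyperoxia in interstitial macrophages, a ratio of 2.504 (1.999 to 3.17), past the limit in 9 of 10 settings. *Ccl12*, the third *Ccr2* ligand of the mouse, stayed between the limits there, at 509 (452 to 573) and 406 (371 to 444) CPM, and *Ccl8* did too, at 127 (98.9 to 160.3) and 240.3 (213 to 269.9) CPM.

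A further 3 CC ligands were past the limit in interstitial macrophages, each depending on how cells were clustered or removed. *Ccl6* had a ratio of 3.84 (2.96 to 5.05) (116 and 445 CPM) and held in 7 of 10 settings. *Ccl9* had a ratio of 2.48 (1.802 to 3.47) (83.4 and 207 CPM) and held in 6 of 10. *Ccl24* (eotaxin-2), a ligand of *Ccr3*, had a ratio of 2.44 (1.305 to 4.97) (21.8 and 53.1 CPM), held in 7 of 10 and reversed in others (0.366 at a finer clustering). Markers of veins summed to 170 CPM in this class of room air and 767 CPM in hyperoxia, with 5 and 2 of the 9 at 0, and their part was not tested. That list holds *Vcam1*, which was also a leading gene of the interstitial macrophage cluster itself. In this class 5 of 18 genes were past the limit upwards and 0 downwards, against 2.6% higher and 3.11% lower among all its genes.

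In cDC2, a class of 32 room air and 104 hyperoxia cells, 6 of 18 genes were past the limit upwards and 2 downwards, against 4.59% higher and 2.96% lower of all genes of the class. *Ccl2* was at 7.73 (2.11 to 19.8) CPM in room air against 174 (152 to 198) CPM in hyperoxia, a ratio of 22.5 (8.66 to 83.2) (the range over 8 settings was 4.73 to 31.4). *Ccl3* was at 15.5 (6.68 to 30.5) CPM in room air against 169 (147 to 192) CPM in hyperoxia, a ratio of 10.9 (5.44 to 25.5). *Ccl4* was at 42.5 (26.7 to 64.4) CPM in room air against 312 (283 to 344) CPM in hyperoxia, a ratio of 7.34 (4.78 to 11.8). Markers of interstitial macrophages moved with these genes, since their 8 genes summed to 2005 CPM in room air against 8794 CPM in hyperoxia, none of them at 0 in either library. The class's own 7 markers summed to 3020 and 1959 CPM. The part of the macrophage markers in the results for cDC2 was not tested.

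*Ccl22*, a ligand of *Ccr4* from mature dendritic cells, had a ratio of 5.93 (3.32 to 11.7) in cDC2 (23.2 and 138 CPM). It rested on 2 hyperoxia cells, which held 135 of 183 UMIs. *Ccl24* was lower there, at 597 (533 to 668) CPM in room air against 186 (163 to 210.5) CPM in hyperoxia, a ratio of 0.311 (0.262 to 0.369), and *Ccl17* stayed between the limits (839 and 1519 CPM, ratio 1.81 (1.63 to 2.01)). The 10 highest cells held 96.4% of the *Ccl24* UMIs in hyperoxia and all of them in room air.

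*Ccl5* (RANTES), a ligand of *Ccr1* made by cytotoxic lymphocytes, was at 2067 (1964 to 2174) CPM in room air against 4608 (4522 to 4696) CPM in hyperoxia in CD8 T cells. Its ratio of 2.23 (2.11 to 2.35) held in 6 of 10 settings and was 0.984 at a coarser clustering. The class had 2 clusters. In the larger *Ccl5* was at 1158 (1067 to 1255) CPM in its 59 room air cells and 1004 (956 to 1053) CPM in its 308 hyperoxia cells, and in the smaller at 4239 (3969 to 4524) CPM in its 19 room air cells and 13572 (13294 to 13853) CPM in its 105 hyperoxia cells, so the 2-fold difference was found in the smaller alone. NK cells, with the highest level, had a ratio of 1.31 (1.26 to 1.37), between the limits. In nonclassical monocytes the low level of *Ccl5* (11.1 and 37.4 CPM) had a ratio of 3.36 (1.53 to 7.64), held in 9 of 10 settings (1.23 to 27.003) and had 100% of its hyperoxia UMIs in 10 cells.

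In adventitial fibroblasts 4 of 12 genes were past the limit upwards and 2 downwards, against 2.24% higher and 1.12% lower of all genes, and the higher ones came from few cells. *Ccl21a* was at 0 (0 to 3.64) CPM in room air against 261 (243 to 281) CPM in hyperoxia, at least 71.7-fold higher against a floor of 3 counts in room air. Only 7 of 216 hyperoxia cells had a UMI of it, and 2 of them held 729 of its 735 UMIs. The same 2 cells held 206 of the 241 UMIs of *Ccl19*, the other ligand of *Ccr7*, which was at 4.86 (1.32 to 12.4) CPM in room air against 85.7 (75.2 to 97.2) CPM in hyperoxia in the class. They had 157 UMIs of the fibroblast gene *Dcn* and 0 of the lymphatic genes *Mmrn1* and *Prox1*. *Cxcl13*, the ligand of *Cxcr5* that attracts B cells, was at 7.29 (2.68 to 15.9) CPM in room air against 151 (137 to 166) CPM in hyperoxia, and 3 cells held 362 of its 424 UMIs. Those 3 cells had 0 UMIs of *Ccl21a* and *Ccl19*, and the 2 cells high in *Ccl21a* had 2 UMIs of *Cxcl13*. *Ccl8*, a CC ligand related to *Ccl2*, had a ratio of 11.6 (3.88 to 57.1) (3.64 and 42.3 CPM), and *Ccl11* stayed between the limits. Markers of AT2 cells summed to 188 CPM in this class of room air and 477 CPM in hyperoxia, none of the 8 at 0, and their part was not tested.

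The remaining CC ligands gave no pair past the limit. *Ccl25*, the ligand of *Ccr9*, was low and even across classes, with its highest share of UMIs in myofibroblasts of room air (22.9%) and alveolar fibroblasts of hyperoxia (20.8%). *Ccl1*, *Ccl20*, *Ccl27a* and *Ccl28* entered in no class. *Ccl20*, the ligand of *Ccr6*, had 0 UMIs in the cells kept in room air and 28 in hyperoxia, of which club cells held 35.7%.

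Among CXC ligands, the *Cxcr2* ligands were higher in hyperoxia, *Cxcl2* in leukocytes and *Cxcl1* in stromal cells. In neutrophils *Cxcl2* (MIP-2) was at 1961 (1825 to 2103) CPM in room air against 5212 (5094 to 5332) CPM in hyperoxia, a ratio of 2.66 (2.47 to 2.87), past the limit in 9 of 10 settings and at 1.83 when cells were limited to 1000 genes or more and 10% mitochondrial UMIs or less. Within their largest cluster it was at 2441 (2269.8 to 2622) CPM in its 98 room air cells and 6023 (5859.8 to 6189.9) CPM in its 377 hyperoxia cells. In the immature cluster it was at 256 (160.4 to 387) CPM in its 6 room air cells and 185 (147 to 229.8) CPM in its 62 hyperoxia cells. The thinned share of neutrophils with a UMI of *Cxcl2* was 53.3% (42.6 to 63.7) of room air cells and 72.1% (66.9 to 76.8) of hyperoxia cells, or 58.1% and 74.9% without thinning, and in B cells 0.809% (0.167 to 2.34) of room air cells and 3.25% (2.25 to 4.54) of hyperoxia cells, or 1.22% and 4.58% without thinning. Neutrophils also held *Cxcl3*, another ligand of *Cxcr2*, at 0 (0 to 7.56) CPM in room air against 46.5 (35.9 to 59.1) CPM in hyperoxia. It was at least 6.14-fold higher against the floor of 3 counts, and 2 cells held 48 of 66 UMIs. Of 9 genes in neutrophils 4 were past the limit upwards and 0 downwards, against 4.15% higher and 2.4% lower of all genes.

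In classical monocytes *Cxcl2* was at 262 (235 to 292) CPM in room air against 1059.5 (1002 to 1119) CPM in hyperoxia, a ratio of 4.04 (3.58 to 4.58). Its thinned share of cells was 12.8% (7.497 to 19.95) of room air cells and 39.6% (31.8 to 47.8) of hyperoxia cells, or 21.3% and 46.8% without thinning. In nonclassical monocytes it was at 122 (102 to 145) CPM in room air against 577 (511 to 649) CPM in hyperoxia, a ratio of 4.71 (3.82 to 5.85). In cDC2 it was at 398 (346 to 456) CPM in room air against 2000.2 (1925 to 2078) CPM in hyperoxia, a ratio of 5.02 (4.36 to 5.82), beside the macrophage markers given above. In the macrophages themselves *Cxcl2* stayed between the limits, with a ratio of 1.47 (1.35 to 1.59) in alveolar and 1.64 (1.54 to 1.74) in interstitial macrophages. Classical monocytes had 5 of 11 genes past the limit upwards and 1 downwards, against 1.78% higher and 1.36% lower. Nonclassical monocytes had 4 of 10 upwards and 0 downwards, against 2.67% higher and 2.06% lower.

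*Cxcl1* (KC), the stromal and epithelial ligand of *Cxcr2*, was at 79.3 (64.3 to 96.9) CPM in room air against 363 (336 to 392) CPM in hyperoxia in pericytes, a ratio of 4.58 (3.69 to 5.73) that held in all 10 settings. Its thinned share of cells was 14.2% (8.32 to 21.97) of room air cells and 33.3% (26.5 to 40.7) of hyperoxia cells, or 26.2% and 52.9% without thinning. The libraries' pericytes lay mostly in different clusters. The main hyperoxia cluster had *Cxcl1* at 111 (71.1 to 165) CPM in its 17 room air cells and 376 (348 to 407) CPM in its 170 hyperoxia cells. The main room air cluster had it at 73.2 (57.3 to 92.1) CPM in its 97 room air cells and 62.5 (12.9 to 183) CPM in its 5 hyperoxia cells, and the smallest at 0 (0 to 310.1) CPM in its 8 room air cells and 174 (70.01 to 359) CPM in its 31 hyperoxia cells. In alveolar fibroblasts *Cxcl1* was at 5.11 (2.92 to 8.303) CPM in room air against 40.6 (37.03 to 44.4) CPM in hyperoxia, a ratio of 7.94 (4.84 to 14.001). Of the alveolar fibroblasts of hyperoxia, the cluster with the most had it at 48.03 (13.1 to 123) CPM in its 6 room air cells and 69.4 (63.1 to 76.2) CPM in its 515 hyperoxia cells. The other main hyperoxia cluster had it at 0 (0 to 60.9) CPM in its 3 room air cells and only 4.47 (2.83 to 6.71) CPM in its 450 hyperoxia cells. The main room air cluster had it at 3.43 (1.64 to 6.2998) CPM in its 169 room air cells and 0 (0 to 73.6) CPM in its 4 hyperoxia cells. The cluster with the most even mix had it at 31.5 (3.81 to 114) CPM in its 37 room air cells and 65.02 (35.5 to 109) CPM in its 144 hyperoxia cells. The intervals overlapped within each of these clusters. In this class 4 of 12 genes of the response to tissue dissociation (median log2 ratio 0.85) and 4 of 8 inducers and feedback genes of NF-kB were past the limit upwards too, and their part was not tested. Of all 6301 genes of the class within the limits on counts, 148 were higher and 104 lower.

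In myofibroblasts *Cxcl1* was at 36.6 (31.4 to 42.4) CPM in room air against 78.7 (72.6 to 85.2) CPM in hyperoxia, a ratio of 2.15 (1.82 to 2.56), past the limit in 7 of 10 settings. Within the myofibroblast cluster that both libraries shared it was at 48.1 (38.2 to 59.7) CPM in its 126 room air cells and 111 (100.003 to 123) CPM in its 252 hyperoxia cells, and there it was higher in hyperoxia. Arteries had 0 UMIs of it in room air and 48.8 (37.8 to 61.96) CPM in hyperoxia, at least 6.03-fold higher against the floor. It stayed between the limits in adventitial fibroblasts (99.6 and 147 CPM) and smooth muscle (38.4 and 34.6 CPM).

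**Figure D4:**
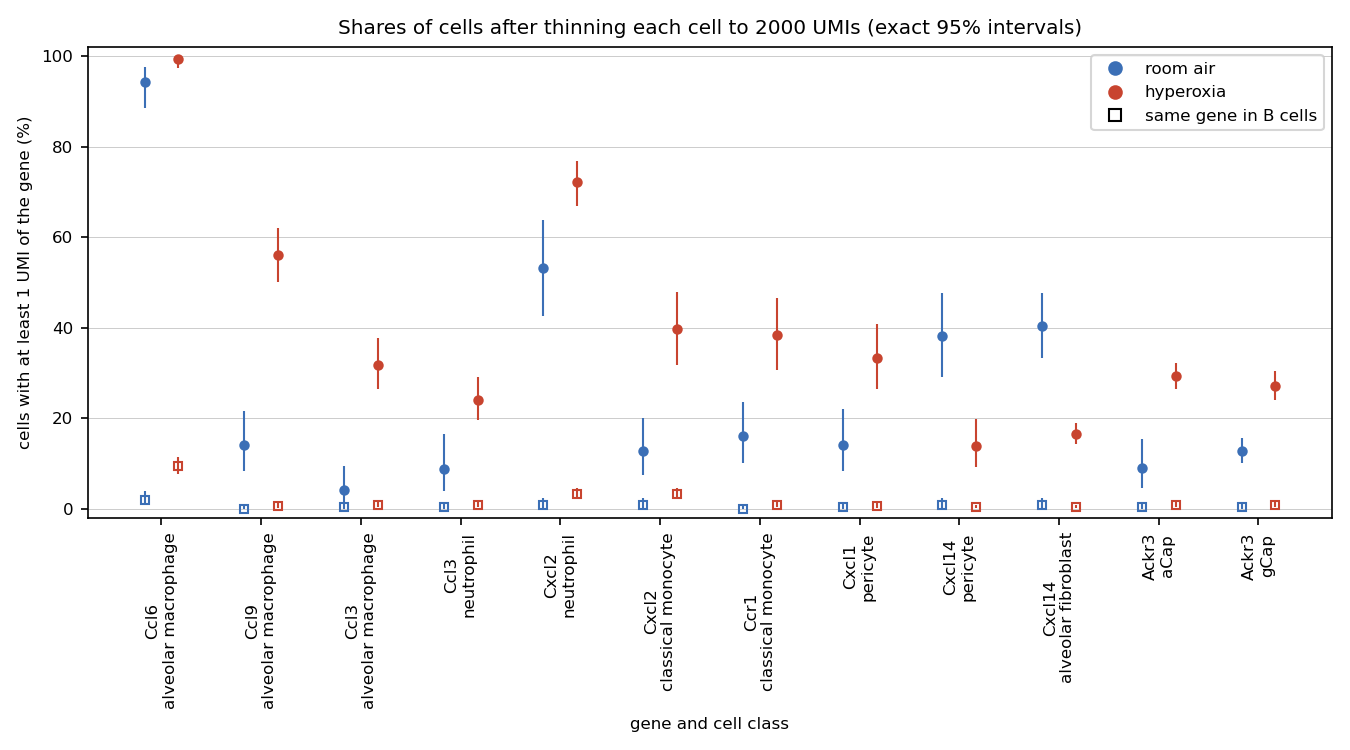
Share of cells with at least 1 UMI of a gene after each cell was thinned to 2000 UMIs, for 12 pairs of gene and class (circles) and for the same gene in B cells (squares), in room air (blue) and hyperoxia (red) with exact 95% intervals. In 10 pairs the hyperoxia share is the higher, in the 2 pairs of *Cxcl14* it is the lower, and B cells stay under 10% for each gene.

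The promoters of *Cxcl3*, *Cxcl1* and *Cxcl2* are shown because *Cxcl1* and *Cxcl2* had more pairs past the limit upwards than the other CXC ligands. *Cxcl15* (chr5:90794534-90803067, plus strand), which was past the limit in no class, lies between *Cxcl3* and *Cxcl1*. The 250 bases before the start are printed in the direction of the gene (RefSeq, GRCm38.p6). Capitals mark matches on either strand to GGGNNTTTCC, the core of a site for the transcription factor NF-kB, with N for any base.
*Cxcl3* (chr5:90785851-90786100, plus strand): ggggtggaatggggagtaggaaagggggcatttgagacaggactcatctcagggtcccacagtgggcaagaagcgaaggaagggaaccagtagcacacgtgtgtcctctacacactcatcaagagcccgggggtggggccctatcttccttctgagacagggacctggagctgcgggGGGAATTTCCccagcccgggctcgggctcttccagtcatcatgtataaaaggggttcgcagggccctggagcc
*Cxcl1* (chr5:90890995-90891244, plus strand): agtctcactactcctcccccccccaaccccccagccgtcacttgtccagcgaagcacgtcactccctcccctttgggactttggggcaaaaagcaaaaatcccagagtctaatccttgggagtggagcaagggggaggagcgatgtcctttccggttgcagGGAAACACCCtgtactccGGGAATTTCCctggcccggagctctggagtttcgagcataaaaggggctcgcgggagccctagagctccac
*Cxcl2* (chr5:90903649-90903898, plus strand): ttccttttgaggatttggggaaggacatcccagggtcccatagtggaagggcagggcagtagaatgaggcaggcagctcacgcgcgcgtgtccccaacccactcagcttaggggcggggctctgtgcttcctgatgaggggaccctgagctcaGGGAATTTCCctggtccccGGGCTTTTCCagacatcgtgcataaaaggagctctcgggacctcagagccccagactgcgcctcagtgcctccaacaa
*Cxcl3* held 1 match, which started 73 bases before the transcription start, *Cxcl1* 2 (the farther at 89 bases) and *Cxcl2* 2 (the farther at 97 bases). The same letters, GGGAATTTCC, stood in all 3. In windows from 250 bases before to 50 bases after the start, 6 of the 43 genes here with a window in the reference held a match (13.95%), the other 3 being *Ccl20*, *Ccl9* and *Ccr3*, and of all 27025 genes with a window 1.89% held one. A match to these letters is a description of sequence and not evidence of binding.

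*Cxcl14* was lower in hyperoxia in all 3 stromal classes where it entered. In alveolar fibroblasts it was at 347 (326 to 368) CPM in room air against 128 (121 to 134) CPM in hyperoxia, a ratio of 0.368 (0.3402 to 0.398). In pericytes it was at 359.5 (327 to 395) CPM in room air against 72.7 (60.7 to 86.3) CPM in hyperoxia, a ratio of 0.202 (0.165 to 0.246). In adventitial fibroblasts it was at 219 (188 to 253) CPM in room air against 48.7 (40.9 to 57.6) CPM in hyperoxia, a ratio of 0.223 (0.177 to 0.2798), where 10 room air cells held 97.2% of its UMIs. All 3 ratios held in the 10 settings. The thinned share of cells was 40.3% (33.3 to 47.6) of room air cells and 16.6% (14.4 to 19.01) of hyperoxia cells, or 70.3% and 40.5% without thinning in alveolar fibroblasts and 38.1% (29.1 to 47.7) of room air cells and 13.9% (9.19 to 19.8) of hyperoxia cells, or 66.4% and 28.6% without thinning in pericytes. In the alveolar fibroblast cluster with the most even mix of libraries, *Cxcl14* was at 267 (156 to 428) CPM in its 37 room air cells and 83.6 (49.5 to 132) CPM in its 144 hyperoxia cells. In the main room air cluster it was at 306 (286 to 326) CPM in its 169 room air cells and 245 (118 to 451) CPM in its 4 hyperoxia cells. The 2 main hyperoxia clusters had it at 2029 (1735 to 2359.5) CPM in its 6 room air cells and 134 (125 to 143) CPM in its 515 hyperoxia cells, and at 102 (32.96 to 237) CPM in its 3 room air cells and 121 (112 to 131) CPM in its 450 hyperoxia cells. The order within clusters was thus not the same throughout and the intervals overlapped in the last and in the main room air one. The main hyperoxia cluster of pericytes had it at 125 (82.2 to 182) CPM in its 17 room air cells and 70.5 (58.5 to 84.3) CPM in its 170 hyperoxia cells, and the main room air cluster at 411 (372 to 453) CPM in its 97 room air cells and 41.7 (5.05 to 151) CPM in its 5 hyperoxia cells.

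*Cxcl12* (SDF-1) differed in both directions. In aCap cells it was at 134 (115 to 156) CPM in room air against 54.96 (50.4 to 59.8) CPM in hyperoxia, a ratio of 0.409 (0.344 to 0.489). The 10 highest room air cells held 93.1% of its UMIs in that class. In arteries, where it was highest, the ratio of 0.542 (0.515 to 0.571) lay just inside the limit, and the thinned share of cells was 87.2% (72.6 to 95.7) of room air cells and 76.6% (68.7 to 83.4) of hyperoxia cells, or 87.8% and 88.03% without thinning. In gCap cells the ratio was 0.78999 (0.756 to 0.825) and in smooth muscle 0.552 (0.473 to 0.644). In alveolar fibroblasts it was higher, at 25.9 (20.6 to 32.2) CPM in room air against 53.6 (49.5 to 57.9) CPM in hyperoxia, a ratio of 2.07 (1.64 to 2.64) that held in 5 of 10 settings. In their most evenly mixed cluster it was at 62.9 (17.1 to 161) CPM in its 37 room air cells and 172 (121 to 237) CPM in its 144 hyperoxia cells, with overlapping intervals. In veins the ratio of 3.66 (1.802 to 8.67) came from 1 hyperoxia cell with 108 of 123 UMIs.

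The pairs of the interferon-induced ligands of *Cxcr3* past the limit rested on few cells. *Cxcl10* was lower in classical monocytes, at 98.6 (82.1 to 118) CPM in room air against 18.1 (11.4 to 27.5) CPM in hyperoxia, a ratio of 0.184 (0.111 to 0.291), and 1 room air cell held 79 of 125 UMIs. It was past the limit upwards in pericytes (19.8 and 51.4 CPM, ratio 2.59 (1.64 to 4.25)) and myofibroblasts (14.6 and 31.6 CPM, ratio 2.16 (1.66 to 2.86)), where the 10 highest hyperoxia cells held 88.04% and 67.1% of its UMIs. Within the main hyperoxia cluster of pericytes the order was the other way with overlapping intervals, *Cxcl10* being at 92.4 (56.5 to 143) CPM in its 17 room air cells and 54.1 (43.6 to 66.3) CPM in its 170 hyperoxia cells. Within the shared myofibroblast cluster it was higher in hyperoxia, at 21.1 (14.8 to 29.2) CPM in its 126 room air cells and 56.3 (48.5 to 64.99) CPM in its 252 hyperoxia cells. In NK cells (14.7 and 38.2 CPM, ratio 2.598 (1.05 to 7.72)) the direction turned when no doublets were removed (0.337). *Cxcl9* was listed at 0 in room air pericytes and 49.2 (39.4 to 60.6) CPM in hyperoxia, at least 19.8-fold higher against the floor, and there 2 cells held every UMI and 1 of them 52 of 88. In cDC2 *Cxcl9* was lower (46.4 and 3.76 CPM, ratio 0.0811 (0.0242 to 0.217)).

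The summed level of *Cxcl13* in pericytes was lower in hyperoxia, at 59.5 (46.6 to 74.9) CPM in room air against 26.3 (19.3 to 34.9) CPM in hyperoxia, a ratio of 0.441 (0.299 to 0.646). Within clusters it was not lower. The main room air cluster held it at 70.1 (54.6 to 88.7) CPM in its 97 room air cells and 271 (144 to 463) CPM in its 5 hyperoxia cells. The main hyperoxia cluster held it at 13.9 (2.86 to 40.5) CPM in its 17 room air cells and 19.99 (13.8 to 27.9) CPM in its 170 hyperoxia cells. In alveolar fibroblasts, which held 51.8% of its UMIs in room air, it stayed between the limits at 32.9 (26.9 to 39.9) and 27.7 (24.8 to 30.9) CPM. *Cxcl16* was past the limit in arteries alone of its 9 classes, at 26.98 (12.9 to 49.6) CPM in room air against 70.6 (57.3 to 86.2) CPM in hyperoxia, a ratio of 2.62 (1.36 to 5.63). *Cxcl15* stayed between the limits in all 4 classes where it entered, and AT2 cells held 87.7% and 84.8% of its UMIs. *Cxcl5* and *Cxcl17* entered in no class. In AT2 cells *Cxcl17* was at 2.82 (1.13 to 5.802) and 34.3 (30.99 to 37.8) CPM, and *Cxcl5*, a *Cxcr2* ligand of lung epithelium, at 0 (0 to 1.21) and 7.35 (5.88 to 9.07) CPM.

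Pericytes had the highest share of genes past the limit, with 5 of 8 upwards and 2 downwards, against 2.71% higher and 2.14% lower of all genes. The 5 were *Ccl2*, *Ccl6*, *Cxcl1*, *Cxcl9* and *Cxcl10*, and the 2 were *Cxcl13* and *Cxcl14*. The share carries the limits given above. *Ccl6* lay near its level in B cells, and *Cxcl9* was found in 2 hyperoxia cells. *Cxcl10* had the other order, with overlapping intervals, within the main hyperoxia cluster. *Cxcl13* was not lower within the main clusters. Of 12 genes of the response to tissue dissociation, 3 were past the limit upwards in pericytes (*Atf3*, *Fosb* and *Zfp36*, named after their values were seen), and the median log2 ratio was 0.68. *Junb* was at 741 and 1148 CPM (ratio 1.55, 95% interval 1.43 to 1.68). Markers of nonclassical monocytes summed to 268 CPM in pericytes of room air and 629 CPM in hyperoxia, with 3 and 0 of the 9 at 0, and those of pericytes to 18006 and 12232 CPM. The part of either list in the pericyte results was not tested.

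*Cx3cl1* was lower in aCap cells, at 109.6 (92.3 to 129) CPM in room air against 51.4 (46.95 to 56.1) CPM in hyperoxia, a ratio of 0.469 (0.388 to 0.569) that held in 7 of 10 settings and otherwise lay up to 0.512. It was lower in hyperoxia in each of the 4 clusters of aCap cells, but with overlapping intervals where room air had few UMIs. The difference was past the limit only in the cluster with 148 hyperoxia cells. *Cx3cl1* was at 57.1 (37.3 to 83.7) CPM in room air and 28.1 (21.96 to 35.3) CPM in hyperoxia there. The cluster with the most room air UMIs, 108, stayed inside the limit. It held *Cx3cl1* at 160 (131 to 193) CPM in room air and 109 (96.3 to 123) CPM in hyperoxia. In the cluster with 539 hyperoxia cells *Cx3cl1* was at 41.8 (13.6 to 97.5) CPM in room air, from 5 UMIs, and 33.8 (28.6 to 39.7) CPM in hyperoxia. In that with 235 hyperoxia cells it was at 64.1 (13.2 to 187) CPM in room air, from 3 UMIs, and 39.7 (20.5 to 69.3) CPM in hyperoxia. Markers of red blood cells summed to 3676 CPM in aCap cells of room air and 749 CPM in hyperoxia, none of the 7 at 0, and those of aCap cells to 12557 and 7825 CPM, and their part was not tested. *Xcl1* in NK cells had a ratio of 0.838 (0.683 to 1.03).

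Receptors were past the limit in few pairs. *Ccr1* was higher in classical monocytes, at 95.5 (79.2 to 114) CPM in room air against 269.6 (241 to 300.5) CPM in hyperoxia, a ratio of 2.82 (2.29 to 3.51), with a thinned share of cells of 16.0000% (10.1 to 23.6) of room air cells and 38.3% (30.6 to 46.5) of hyperoxia cells, or 32.3% and 62.8% without thinning. It stayed between the limits in neutrophils (1.55 (1.34 to 1.81)), interstitial macrophages (1.75 (1.39 to 2.21)), cDC2 (1.61 (1.21 to 2.18)) and alveolar macrophages (1.38 (1.12 to 1.72)), with a ratio above 1 in each. *Cxcr4* was lower in alveolar macrophages, at 89.2 (75.4 to 105) CPM in room air against 27.5 (23.2 to 32.4) CPM in hyperoxia, a ratio of 0.309 (0.244 to 0.3905). Within the cluster of mostly hyperoxia cells it was at 129 (79.9 to 197) CPM in its 11 room air cells and 26.8 (22.5 to 31.6) CPM in its 279 hyperoxia cells. Within the other it was at 84.9 (70.8 to 101) CPM in its 116 room air cells and 54.4 (23.5 to 107) CPM in its 13 hyperoxia cells, where the intervals overlapped. *Cxcr4* was also lower in arteries, at 59.4 (37.2 to 89.9) CPM in room air against 26.2 (18.4 to 36.3) CPM in hyperoxia, a ratio of 0.442 (0.253 to 0.788).

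In gCap cells *Cxcr4* was at 67.6 (60.6 to 75.04) CPM in room air against 20.5 (17.2 to 24.2) CPM in hyperoxia, a ratio of 0.304 (0.248 to 0.371) that held in 7 of 10 settings. The 2 gCap clusters were each mostly of 1 library. In the hyperoxia one *Cxcr4* was at 42.6 (11.6 to 109) CPM in its 15 room air cells and 18.9 (15.7 to 22.6) CPM in its 760 hyperoxia cells. In the room air one it was at 68.02 (61.02 to 75.6) CPM in its 632 room air cells and 64.5 (36.1 to 106) CPM in its 32 hyperoxia cells. Within both clusters the intervals overlapped, and the cells of the class lay mostly in different clusters in each library. *Cxcr4* entered in 13 classes and stayed between the limits in the other 10.

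*Cx3cr1* was past the limit upwards in cDC2, at 19.3 (9.27 to 35.6) CPM in room air against 64.7 (51.7 to 79.9) CPM in hyperoxia, a ratio of 3.35 (1.73 to 7.23), beside the macrophage markers given above. It was past the limit in NK cells too, at 7.35 (1.52 to 21.5) CPM in room air against 47.01 (32.2 to 66.4) CPM in hyperoxia, a ratio of 6.39 (2.0004 to 32.6). *Cxcr6* was higher in NK cells too, at 14.7 (5.396 to 32.004) CPM in room air against 79.3 (59.6 to 104) CPM in hyperoxia, a ratio of 5.395 (2.32 to 15.3) that held in 8 of 10 settings. Markers of group 2 innate lymphoid cells summed to 324 CPM in NK cells of room air and 837 CPM in hyperoxia, with 5 and 1 of the 9 markers at 0, and their part in these results was not tested. The median log2 ratio of all genes in NK cells was 0.11. In this class 3 of 15 genes were past the limit upwards and 0 downwards, against 313 higher and 128 lower of all 5484 genes. *Ccr9*, the gut-homing receptor, was lower in CD4 T cells, at 43.1 (27.3 to 64.7) CPM in room air against 11.1 (6.57 to 17.5) CPM in hyperoxia, a ratio of 0.257 (0.131 to 0.498), and at most 10 cells held all its room air UMIs. With stricter limits on genes and mitochondrial UMIs the ratio turned to 2.56. *Ccr2*, *Ccr7*, *Cxcr2*, *Cxcr3* and *Cxcr5* were past the limit in no class. *Ccr3*, *Ccr4*, *Ccr6*, *Ccr8*, *Ccr10*, *Cxcr1* and *Xcr1* entered in none.

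*Ackr3*, the scavenger of *Cxcl12*, was higher in both kinds of capillary cell. In aCap cells it was at 56.3 (44.2 to 70.8) CPM in room air against 191 (183 to 200.3) CPM in hyperoxia, a ratio of 3.398 (2.69 to 4.35), with a thinned share of cells of 8.94% (4.55 to 15.4) of room air cells and 29.2% (26.4 to 32.2) of hyperoxia cells, or 25.3% and 56.1% without thinning. In gCap cells it was at 82.9 (75.2 to 91.1) CPM in room air against 192 (182 to 203) CPM in hyperoxia, a ratio of 2.32 (2.08 to 2.595), with a thinned share of 12.6% (10.1 to 15.5) of room air cells and 27.2% (24.1 to 30.4) of hyperoxia cells, or 33.1% and 54.9% without thinning. B cells had thinned shares of 0.2695% (0.00682 to 1.49) of room air cells and 0.888% (0.407 to 1.68) of hyperoxia cells, or 1.46% and 1.44% without thinning. It was higher in hyperoxia in each of the 4 clusters of aCap cells, for example at 37.1 (24.001 to 54.7) CPM in its 78 room air cells and 105 (92.1 to 118) CPM in its 255 hyperoxia cells in the one with the most room air cells. The intervals overlapped in a cluster with 2 room air UMIs, at 42.7 (5.18 to 154) CPM in room air and 126 (88.9 to 172) CPM in hyperoxia. In gCap cells the order within clusters was the other way, with overlapping intervals. The hyperoxia cluster had *Ackr3* at 309 (207 to 444) CPM in its 15 room air cells and 197 (187 to 209) CPM in its 760 hyperoxia cells. The room air cluster had it at 78.7 (71.2 to 86.8) CPM in its 632 room air cells and 51.6 (26.7 to 90.2) CPM in its 32 hyperoxia cells. In veins, where *Ackr3* was highest, the ratio was 0.957 (0.856 to 1.07), and in arteries 1.62 (1.003 to 2.75). *Ackr2* stayed between the limits in aCap (0.567 (0.478 to 0.675)) and gCap cells (1.79 (1.47 to 2.199)), and *Ackr1* and *Ackr4* entered in no class.

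The levels summed over a class can also be set side by side for the ligands and receptors of an axis. For *Cxcl12*, the level in EC classes other than veins was lower or between the limits, the summed level of *Ackr3* was higher in both kinds of capillary cell and that of *Cxcr4* lower in gCap cells, arteries and alveolar macrophages. Within each gCap cluster the intervals of *Ackr3* and of *Cxcr4* overlapped between the libraries. For *Cxcr2*, its ligands *Cxcl1* and *Cxcl2* were past the limit upwards in 8 pairs, each in 4 of the 7 classes where it entered. Among these, the intervals of *Cxcl1* overlapped within the clusters of alveolar fibroblasts listed above, and *Cxcl2* in cDC2 stood beside macrophage markers. *Cxcr2* itself in neutrophils had a ratio of 0.944 (0.846 to 1.05). For *Ccr2*, its ligand *Ccl2* was past the limit upwards in 3 of 5 classes and downwards in 1, and *Ccl7* upwards in 1 of 2. Over all genes 2.7% of pairs were higher and 2.19% lower. *Ccr2* in classical monocytes had a ratio of 1.25 (1.14 to 1.37). For *Ccr7*, the ligand *Ccl21a* in lymphatic ECs was given above, and the receptor in B cells had a ratio of 0.914 (0.845 to 0.989). For *Cxcl13*, the receptor *Cxcr5* in B cells had a ratio of 0.9604 (0.833 to 1.11). For *Cx3cl1*, the receptor *Cx3cr1* in nonclassical monocytes had a ratio of 0.897 (0.723 to 1.11) and in interstitial macrophages of 0.722 (0.646 to 0.807).

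Over all cells kept in a library, the share of each class enters as well as the level inside it. There 9 of the 56 genes were at least 2-fold higher in hyperoxia, 4 at least 2-fold lower and 43 between, against 4.34% higher and 5.62% lower among all genes with as many UMIs. *Ccl6* was at 399 (392 to 405) and 964 (958 to 971) CPM (ratio 2.42 (2.38 to 2.46)), *Ccl9* at 31.1 (29.3 to 32.9) and 65.2 (63.6 to 66.9) CPM (2.099 (1.97 to 2.24)) and *Cxcl2*, just inside the limit, at 119 (116 to 123) and 238 (235 to 241) CPM (1.996 (1.93 to 2.06)). *Ccl7* was at 3.604 (3.02 to 4.27) and 8.89 (8.298 to 9.52) CPM (2.47 (2.05 to 2.99)) and *Cxcl17* at 10.3 (9.33 to 11.4) and 20.8 (19.9 to 21.7) CPM (2.01 (1.796 to 2.25)). *Cxcl5* had the largest ratio of the genes detected in both libraries, 5.24 (3.49 to 8.22), at 0.683 (0.442 to 1.01) and 3.58 (3.21 to 3.98) CPM. The other genes at least 2-fold higher were *Cxcl3*, *Ccr4*, *Ccr10* and *Ccl20*, all with few UMIs. *Cxcl14* was lower, at 48.99 (46.7 to 51.3) and 20.7 (19.8 to 21.7) CPM (0.423 (0.397 to 0.452)), as were *Ccl24* (0.377 (0.323 to 0.439)), *Ackr1* (0.314 (0.191 to 0.512)) and *Ackr4* (0.371 (0.274 to 0.502)). *Cx3cr1* was at 28.97 (27.3 to 30.8) and 14.9 (14.2 to 15.7) CPM, a ratio of 0.515 (0.475 to 0.559), although inside its main classes it stayed between the limits. Nonclassical monocytes, 1 of those classes, were 6.33% of the cells kept in room air and 1.21% in hyperoxia. *Cxcr4* was at 90.7 (87.6 to 93.8) and 52.9 (51.5 to 54.4) CPM (0.584 (0.559 to 0.611)) and *Cxcl12* at 200.3 (196 to 205) and 127 (125 to 129) CPM (0.634 (0.616 to 0.653)), while gCap cells were 17.6% of the cells kept in room air and 7.56% in hyperoxia. Fewer cells captured of a class and fewer cells in the tissue cannot be told apart here.

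The other genes of the pathway were read from lists written with earlier results of these data known, and their counts stand against the 2.7% higher and 2.19% lower of all pairs given above. Of the 29 genes of signalling below chemokine receptors, 5 pairs were past the limit upwards and 6 downwards of 362 (median log2 ratio -0.01), and *Gnai2*, the G protein subunit that most of these receptors use, lay between ratios of 0.817 and 1.42 in all 21 classes. *Coro1a*, an actin regulator of leukocytes, was past the limit downwards in alveolar macrophages, at 497 and 239 CPM (ratio 0.4802, 95% interval 0.4395 to 0.525). Of 9 related genes outside the symbol rule, 7 pairs were higher and 1 lower of 70. *Ccrl2*, an atypical receptor of chemerin, was at 19.9 and 58.1 CPM (ratio 2.92, 95% interval 2.04 to 4.32) in alveolar macrophages and at 155 and 319 CPM (ratio 2.06, 95% interval 1.62 to 2.65) in cDC2. *Pf4*, a CXC ligand of platelets and macrophages, was at 21.3 and 161 CPM (ratio 7.57, 95% interval 4.15 to 15.4) in cDC2, and *Mif*, a cytokine that also binds *Cxcr2* and *Cxcr4*, at 121 and 301 CPM (ratio 2.497, 95% interval 2.22 to 2.82) in AT2 cells.

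Of 17 inducers and feedback genes of NF-kB, 13 pairs were higher and 4 lower of 221 (median 0.07). *Nfkbiz*, a cofactor of NF-kB, was at 26.5 and 63.4 CPM (ratio 2.39, 95% interval 1.74 to 3.35) in alveolar macrophages. *Il1b*, a cytokine that induces many chemokines, was at 8108 and 7649 CPM (ratio 0.943, 95% interval 0.907 to 0.982) in neutrophils and 976 and 967 CPM (ratio 0.991, 95% interval 0.914 to 1.07) in classical monocytes, between the limits in both. In NK cells, which are not its source, it was at 78.4 and 7.35 CPM (ratio 0.0937, 95% interval 0.0285 to 0.242). *Nfkbia*, the feedback inhibitor, was at 2233 and 1913 CPM (ratio 0.857, 95% interval 0.794 to 0.925) in neutrophils and 135 and 291 CPM (ratio 2.16, 95% interval 1.95 to 2.39) in alveolar fibroblasts.

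Of 12 genes of the response to tissue dissociation, 24 pairs were higher and 3 lower of 249 (median 0.31). The classes differed. NK cells and alveolar fibroblasts had 4 of 12 higher each (median log2 ratio 0.62 and 0.85). B cells and pericytes had 3 higher each (0.67 and 0.68), and nonclassical monocytes 2 (0.48), with 0 lower in each of these classes. Among all genes, 313 of 5484 were higher in NK cells and 148 of 6301 in alveolar fibroblasts. The corresponding numbers were 59 of 5472 in B cells, 178 of 6576 in pericytes and 140 of 5248 in nonclassical monocytes. In alveolar macrophages 0 were higher and 3 lower (-0.40), with *Jun* at 531 and 255 CPM (ratio 0.4802, 95% interval 0.441 to 0.523). In neutrophils and classical monocytes none of the 12 was past the limit (median log2 ratio 0.23 and 0.31). *Fos* was at 2487 and 3002 CPM (ratio 1.21, 95% interval 1.13 to 1.29) in neutrophils. The part of this response in the chemokine results was not tested. Of 10 interferon response genes, 0 pairs were higher and 24 lower of 75 (median -0.65). In classical monocytes 6 of 7 were lower, against 1.78% higher and 1.36% lower of all genes of the class, for example *Isg15* at 129 and 42.9 CPM (ratio 0.331, 95% interval 0.238 to 0.455) and *Gbp2* at 109 and 39.6 CPM (ratio 0.363, 95% interval 0.256 to 0.508). In gCap cells 4 of 5 were lower, against 1.56% higher and 2.09% lower, with *Iigp1* at 230.4 and 43.6 CPM (ratio 0.189, 95% interval 0.166 to 0.215).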

How the data were processed

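Single-cell RNA libraries of pooled lungs of 8 mice were deposited for each of 2 groups, with 1 sample per group. The authors deposited raw UMI counts per gene and barcode called as a cell, with no cell annotation in the files. Per the methods and labels, reads were aligned to mm10 with Cell Ranger, and the submitters' processing notes name version 2.1.1, which differs from the version in the methods. The labels and the methods also differ in the version of the 3′ kit. Gene coordinates were taken from GENCODE vM21 and promoter sequences from RefSeq (GRCm38.p6).

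Barcodes counted as cells at 500 genes or more and 20% mitochondrial UMIs or less (345 room air and 1026 hyperoxia barcodes had fewer genes, and 141 and 904 exceeded the mitochondrial limit). Simulated doublets (2 per cell) gave each cell a score, and the highest-ranked 3.39% and 10.6% (0.8% per 1000 barcodes, 129 and 1239 cells) were removed. Counts scaled to 10000 per cell were log-transformed, reduced to 30 principal components of 2000 variable genes without the 56 genes described, and clustered with both libraries together by the Leiden method (20 neighbours, resolution 1). A cluster took a class name from a list of known markers if at least 3 of them were raised, in 5% of its cells or more and by 0.5 or more in log2. The ranking of doublets and the naming rule were revised several times after clusters, names and levels of these genes had been seen, and the last version is reported. The genes and lists were chosen with earlier results of these data known.

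Intervals were exact (Poisson for CPM of summed counts, conditional for ratios, Clopper-Pearson for shares), at 95% and for counting error only. A count of 0 allows up to 3 counts, used as the floor of a ratio. With 1 library per group no test between groups was made, and a limit of 2-fold (0.5 downwards) served instead, for classes of at least 30 cells per library and genes with at least 20 UMIs and a mean of 20 CPM. Described with values were, per class, the 2 ligands and 2 receptors of highest CPM and each gene past the limit, and of each pathway list the 4 genes of highest mean CPM. Values of 1 receptor and of 1 pathway gene are not reported here, though both are in the counts. Alternatives were other clusterings, doublet removal, cell limits, scalings and count limits. Intervals were checked on Poisson counts simulated from the summed room air profiles of alveolar macrophages and pericytes. Such counts meet the assumption of the intervals and hold no UMIs concentrated in few cells. The check thus cannot show how the intervals behave for levels that rest on few cells. Python 3.11.15 was used with numpy 2.4.6, scipy 1.17.1, pandas 2.3.3, scikit-learn 1.9.0, igraph 0.11.9, leidenalg 0.10.2 and matplotlib 3.10.9.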

Additional observations from a re-analysis of the deposited data

How the results depend on the processing

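With 1 library per group, no replicate could be left out and no error between mice could be had. No paired analysis was possible because each group has 1 sample and the groups share only 1 replicate number, given in accession order. Of the 68 pairs past the limit, 67 stayed past it when mitochondrial, ribosomal protein and haemoglobin genes were taken out of the total, 68 with TMM scaling, 65 at resolution 0.5, 59 at resolution 2, 63 with no doublets removed, 59 with the doublet rate doubled and 62 with the mean of single cells. With each library clustered on its own 55 of 60 pairs stayed past it, and with cells limited to 1000 genes or more and 10% mitochondrial UMIs or less 52 of 60, since cDC2 had under 30 cells in a library there. Plain ranking of doublets, chosen after seeing the data, left 65. The number past the limit was 135 with no limit on the mean CPM and 40 with a limit of 50 CPM, that of higher pairs 107 and 32, and that of lower pairs 28 and 8, against 68, 53 and 15. Lower pairs numbered 31 with each library clustered on its own and 23 with plain ranking. The ratio turned for *Ccl5* in CD8 T cells at resolution 0.5 (0.984), for *Ccl24* in interstitial macrophages at resolution 2 (0.366) and with stricter cell limits (0.349), for *Cxcl10* in NK cells with no doublets removed (0.337) and the rate doubled (0.349), for *Cxcl12* in veins with the rate doubled (0.867) and for *Ccr9* in CD4 T cells with stricter cell limits (2.56). The causes were not tested.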

Other observations

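Several levels belong to no comparison because a library held few cells of the class. Mast cells or basophils (26 room air and 46 hyperoxia cells) held 58.7% of the *Ccl3* UMIs of room air. They held 65.5% of the *Ccl4* UMIs of room air and 30.2% of those of hyperoxia. In hyperoxia the class with the most *Ccl3* UMIs was alveolar macrophages, with 37.2%, and that with the most *Ccl9* UMIs was classical monocytes (30.6%) in room air and alveolar macrophages (64.3%) in hyperoxia. The class with the most *Ccl2* UMIs was interstitial macrophages, with 54.3% in room air and 21.6% in hyperoxia.

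In lymphatic ECs *Ackr1*, an atypical receptor known from veins, was at 184 (128 to 256) and 34.4 (21.8 to 51.6) CPM in room air and hyperoxia. In plasmacytoid dendritic cells *Ccl4* was at 113 (23.4 to 331) and 1821 (1647 to 2009.7) CPM, from 3 room air and 31 hyperoxia cells. *Cxcr1*, a receptor for CXC ligands, had its most UMIs in alveolar macrophages of both libraries (73.7% and 78.5% of 19 and 93 UMIs) and not in neutrophils. *Ccr4* and *Ccr10*, receptors of T cells that home to epithelia, had their most UMIs in regulatory T cells of hyperoxia, with 56.2% and 43.3%.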
